A study of Mus musculus with 42 samples.

Results

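Lpo, Mucl2, Car6 and Lcn2 encode secreted proteins of glandular epithelium, and their levels were followed here in 21 mouse mammary tumours. They were found as the 4 probes that the platform annotation assigns to these genes, of 22800 probes on the array and 9407 that passed the filter on measured values. The genes were chosen by the spread of these same tumour means, so the levels below describe that choice and no test of variation is given for them. Ranked by the standard deviation of tumour means among the 9407 probes, Car6 stood at 2, Lcn2 at 24, Mucl2 at 28 and Lpo at 31.

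Lpo is lactoperoxidase, the heme peroxidase of milk and saliva that oxidises thiocyanate with hydrogen peroxide to an agent that harms bacteria. Car6 is a carbonic anhydrase released into saliva and milk, where it helps to set pH. Mucl2 is a mucin-like gene known in the mouse as a salivary protein gene, and Lcn2 is a lipocalin that binds bacterial siderophores and so withholds iron from bacteria. Lcn2 is also known as a gene of inflamed epithelium and of neutrophils.

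The tumours came from mice of FVB/N-Tg(WapMyc)212Bri, in which c-Myc is driven by the Wap promoter, active in the secretory mammary epithelium that makes milk proteins. Passage in living mice had selected a glandular line, solid or comedo lines without and with lung metastases, and a line of spindle-shaped, mesenchymal cells. Tumours are named in the labels and their lines are not, so the lines could not be compared, and every tumour descends from transgenic neoplasms with no unselected mammary gland beside it. Each tumour was hybridised on 2 two-colour arrays with exchanged dyes against a universal mouse reference RNA. The spread between the arrays of a tumour therefore holds hybridisation error and any dye effect, and no variation between animals.

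The promoters of the 4 genes are shown because the genes varied in tumours made with a Myc transgene, and each can be read against the same set of short motifs. RefSeq (GRCm38.p6) held all 4, each on the minus strand, as the 250 bases before the start of the gene, written 5′ to 3′. Capitals mark motif matches.
Lpo, chr11:87826115-87826364: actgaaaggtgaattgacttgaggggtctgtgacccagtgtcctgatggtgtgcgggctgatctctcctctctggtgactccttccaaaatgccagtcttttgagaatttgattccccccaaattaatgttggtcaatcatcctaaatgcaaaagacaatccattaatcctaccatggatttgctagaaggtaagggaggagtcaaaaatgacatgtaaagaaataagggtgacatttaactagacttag
Mucl2, chr15:103899313-103899562: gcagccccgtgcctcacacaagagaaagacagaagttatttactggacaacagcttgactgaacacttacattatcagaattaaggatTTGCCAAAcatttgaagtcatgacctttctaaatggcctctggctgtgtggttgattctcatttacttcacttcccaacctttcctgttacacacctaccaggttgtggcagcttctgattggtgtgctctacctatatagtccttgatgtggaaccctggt
Car6, chr4:150201136-150201385: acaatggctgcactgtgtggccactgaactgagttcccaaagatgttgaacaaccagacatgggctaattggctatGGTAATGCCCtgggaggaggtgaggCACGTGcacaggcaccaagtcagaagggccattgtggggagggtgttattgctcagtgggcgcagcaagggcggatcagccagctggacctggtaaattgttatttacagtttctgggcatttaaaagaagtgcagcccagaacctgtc
Lcn2, chr2:32387740-32387989: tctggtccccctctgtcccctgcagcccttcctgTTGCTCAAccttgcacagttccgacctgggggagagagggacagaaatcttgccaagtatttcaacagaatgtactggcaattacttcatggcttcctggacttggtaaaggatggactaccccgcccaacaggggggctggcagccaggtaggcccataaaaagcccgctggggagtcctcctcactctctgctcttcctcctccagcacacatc

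The motifs were searched on both strands. The E-box bound by Myc (CACGTG) occurred in Car6 alone of the 4, with its first base at -149, counting back from -1 beside the start, and 6.0% of 32851 RefSeq promoters of this length held it. A core C/EBP motif (TTGCNNAA, in 9.6% of promoters) began at -216 in Lcn2 and at -162 in Mucl2. An NF-kB motif (GGG and CC separated by NNTTN, in 4.1%) began at -174 in Car6 on the opposite strand. The STAT motif (TTCNNNGAA, in 7.0%) and the TATA box (TATAAA, in 12.4%) had no match in the 4 windows, and Lpo matched no motif of the set. Base composition also differed, with G and C at 56.4% in Lcn2, 52.4% in Car6, 44.0% in Mucl2 and 42.0% in Lpo, against a median of 52.4% over all promoters. A match describes letters and shows no binding, and a missing match says only that these letters are not in this window.

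Levels are log2 ratios to the reference RNA with the array's own median subtracted, averaged over the arrays of a tumour. Ratios of exchanged dyes had been deposited unturned, so the orientation of each array was taken from the data, and the overall sign was set by Myc being positive. That sign rests on no label, and all signs below could be turned together. Over the tested probes the arrays of a tumour correlated between 0.732 in tumour 641 and 0.133 in tumour 660 after turning, with tumour 656 at 0.271. Measured probes per array ranged between 21328 and 8600, and the number of arrays limits the precision. As a check of tissue, each of the 12 tested epithelial markers had a median above 0, but the number of tumours above 0 differed between them. Krt8, a keratin of luminal epithelium, was above 0 in 21 of 21 tumours (2.99 in tumour 649 to 0.77 in 656), Epcam, an epithelial adhesion protein, in 16, Krt18, the partner keratin of Krt8, in 14, and Krt19 in 10 of 20. In tumour 649, where Krt8 was highest, Epcam was at -2.39, Spint2 at -3.35, Krt19 at -2.75 and Cldn7 at -1.02. In bulk tissue, fewer cells of a type and less RNA per cell cannot be told apart.

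Lactoperoxidase separated a few tumours from the rest. Lpo had its highest tumour mean in 667 (9.07, from 1 array, the other being blank), its median at 1.47 and its lowest in 664 (0.62, arrays at 0.55 and 0.69). Tumours 669 (4.60 and 8.06), 638 (4.91 and 7.52) and 643 (6.39 and 5.28) followed with means of 6.33, 6.21 and 5.83. The 4 leading tumours therefore had every measured array above 4, although their arrays lay up to several log2 units apart. Tumours 673, 641, 640 and 639 had means of 3.80, 3.33, 2.78 and 2.01. The other 13 lay between 1.90 in tumour 660 and 0.62 in tumour 664. Highest and lowest tumour were 8.45 apart on the log2 scale, which is 350-fold. With 1 array per tumour that distance was 6.44 for the first arrays, which lack tumour 667, and 10.28 for the second.

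Among tumours with both arrays measured, Lpo had the lowest share of variance between tumours of the 4 genes. The pooled SD between arrays of a tumour was 1.53, which gives a standard error of 1.08 for a mean of 2 arrays. The tumour accounted for 0.49 of the variance (intraclass correlation). The SD and this share come from the 20 tumours with both arrays measured, which leave out 667, the highest for Lpo. For Car6 they likewise leave out 660, the lowest, and for Mucl2 664. Here and for the other genes no dye effect was removed before the SD was taken. In 3 tumours the arrays fell on opposite sides of 0, with 3.90 and -1.20 in tumour 656, 3.80 and -0.40 in 663, and -0.04 and 3.85 in 660. Their means of 1.35, 1.70 and 1.90 therefore carry no reliable direction. In the order of the tumours, 2 of 20 neighbouring pairs were further apart than that SD: 667 above 669, and 643 above 673.

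Mucl2 stood out in fewer tumours than Lpo. Tumour 667 had 7.81 and 8.90 on its arrays and tumour 638 had 6.83 and 7.98, for means of 8.36 and 7.41. Tumours 669 (2.02 and 2.96, mean 2.49) and 643 (2.49 and 1.64, mean 2.06) came next. All other tumours lay between 0.95 in tumour 660 and -1.41 in tumour 646 (-0.63 and -2.19), around a median of 0.55. The arrays of 667 and 638 did not overlap those of any other tumour. The step of 4.92 between tumours 638 and 669 was the widest between neighbours in the order of any of the 4 genes.

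The pooled SD between arrays for Mucl2 was 1.00 (standard error of a tumour mean 0.71, intraclass correlation 0.845), so most tumours between 0.95 and -0.68 cannot be ordered. Besides the step below 638, only the step between 643 and 660 was wider than the SD, at 1.11. Arrays of 6 tumours lay on opposite sides of 0. After rounding to 3 decimals, 10 of 41 Mucl2 values and 10 of 41 Lpo values equalled log2 of a ratio of whole numbers up to 20, against 3 of 41 for Car6 and 1 of 42 for Lcn2. The median share of such values on an array was 14.8%.

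Car6 ranged furthest, with 12.01 log2 units between the highest and the lowest tumour mean. Tumour 656 led at 10.51, with arrays at 12.65 and 8.38, and tumour 660 was lowest at -1.49, from 1 array. Tumours 667, 638, 643, 640, 669 and 641 lay close together, with means between 8.34 and 6.96 and every array between 8.86 and 6.85. Tumours 673, 639 and 644 formed a middle level at 4.29, 4.18 and 4.12. The median was 2.19, and tumours 653, 655, 664 and 660 were at or below -0.11.

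The levels of Car6 were separated by a few steps wider than the error between arrays. The pooled SD was 1.66 (standard error of a tumour mean 1.17, intraclass correlation 0.79), and 3 of 20 neighbouring steps exceeded it: 656 to 667 by 2.18, 641 to 673 by 2.67 and 644 to 649 by 1.93. The widest gap was in tumour 663, whose arrays read 5.58 and -3.03, a difference of 8.62. Its mean of 1.28 is therefore not a usable level. The ratio of highest to lowest tumour came to 4110-fold, but the bottom rests on a single array, and the top on tumour 656, whose arrays correlated at 0.074 over all probes before turning, where exchanged dyes should give a negative value.

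Lcn2 had the opposite shape, high in 16 tumours and low in 5 in the sign used, which would read as low in 16 and high in 5 with the overall sign turned. Its median of 4.49 ranked 1 among the medians of all 9407 tested probes, and would rank last with the sign turned. Tumour 656 was highest at 6.86 (7.29 and 6.44), and 15 more tumours lay between 5.76 in tumour 641 and 3.18 in tumour 670 (3.74 and 2.62). Tumours 673 (0.74 and 0.27), 644 (0.45 and 0.27), 647 (-0.61 and 0.07), 646 (-0.52 and -2.36) and 649 (-1.44 and -1.50) were low, with means of 0.51, 0.36, -0.27, -1.44 and -1.47. No array of the 5 low tumours reached any array of the other 16.

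Of the 4 genes, Lcn2 had the smallest error, with a pooled SD of 0.83, a standard error of 0.59 for a tumour mean and an intraclass correlation of 0.896. The step of 2.67 between tumours 670 and 673 was 1 of 3 neighbouring steps wider than the SD, with those of 656 to 641 (1.10) and 647 to 646 (1.17). Highest and lowest tumour differed by 8.33, or 322-fold.

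**Figure D1:**
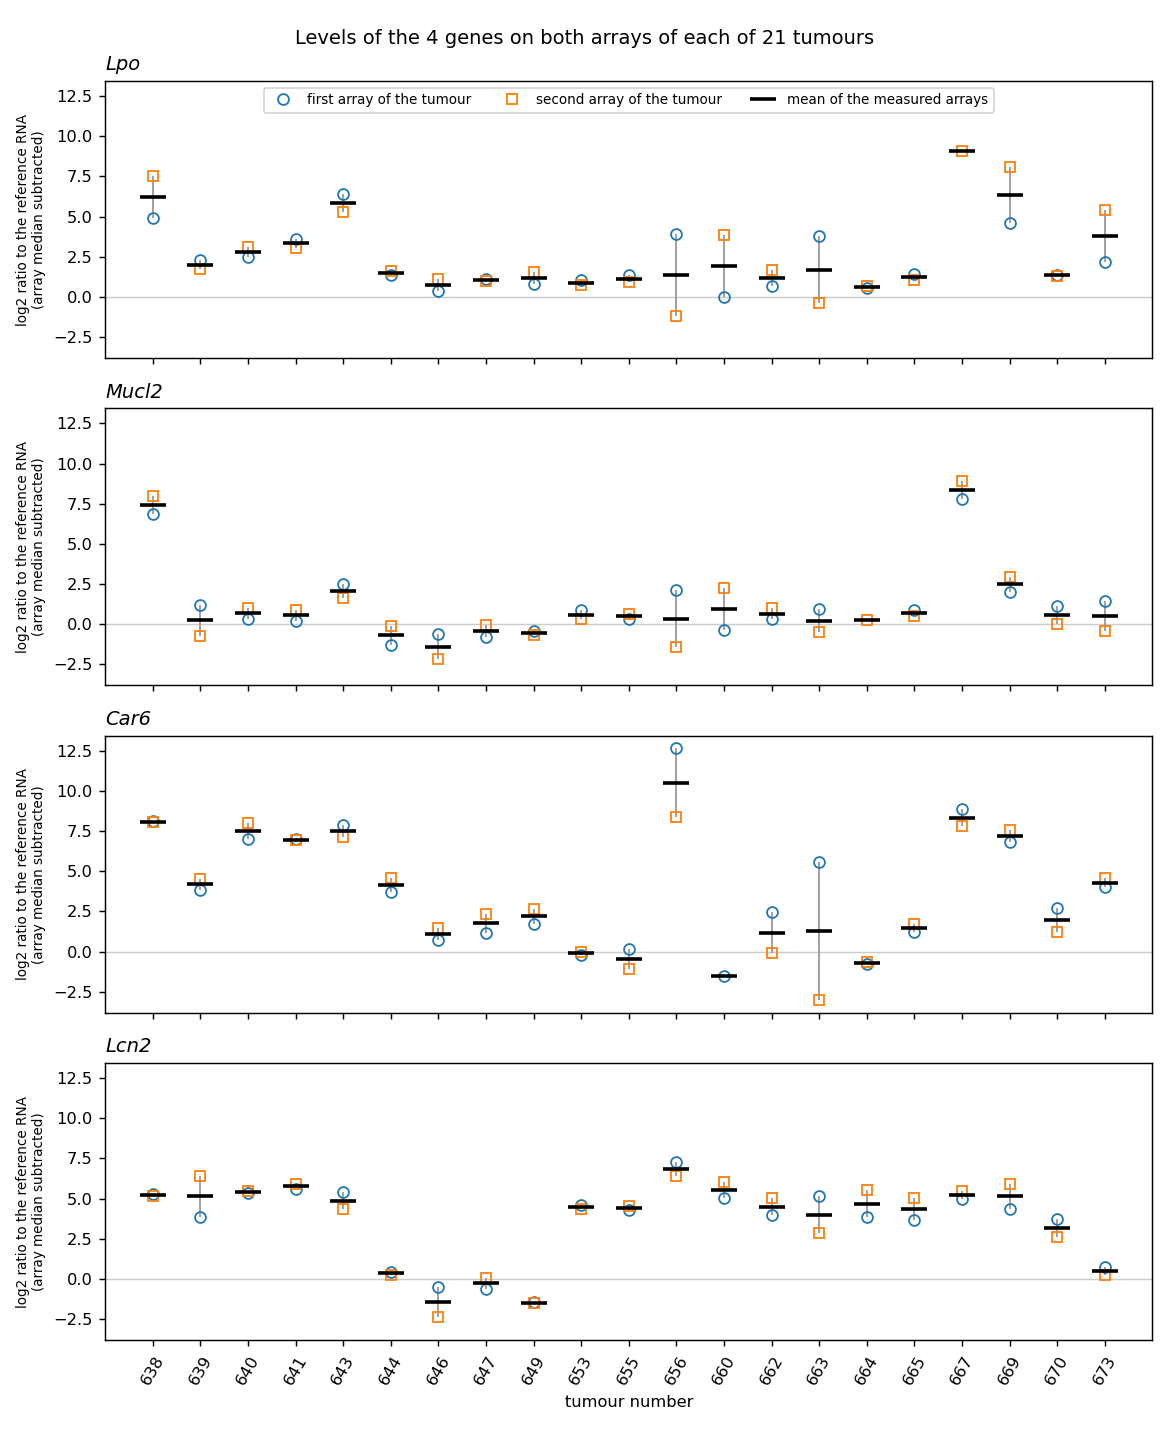
Log2 ratio to the reference RNA, array median subtracted (y axis), for Lpo, Mucl2, Car6 and Lcn2 in each tumour (x axis, tumour number). Open circles and squares are the first and second array, a grey line joins them and the black bar is their mean; Mucl2 stands out in tumours 667 (8.36) and 638 (7.41), while Lcn2 is low in 673, 644, 647, 646 and 649.

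The tumours that carried the high levels overlapped between genes without being the same. A mixture model on the tumour means put Lpo into components of 7 high and 14 low tumours, Mucl2 into 2 and 19, Car6 into 7 high, 3 middle and 11 low, and Lcn2 into 16 high and 5 low. The Lpo boundary fell between tumours 640 (2.78) and 639 (2.01), a step of 0.78 that is smaller than the pooled SD of 1.53. The Lpo components are therefore not levels separated beyond the error between arrays. High Lpo and high Car6 shared 6 tumours, 6 of 7 in each, namely 638, 640, 641, 643, 667 and 669. Tumour 673 was high for Lpo (3.80) and in the middle for Car6 (4.29), and tumour 656 was highest for Car6 (10.51) with Lpo at 1.35. Both high-Mucl2 tumours, 667 and 638, were in the high components of the other 3 genes.

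Low Lcn2 did not go with low Car6 throughout. Tumours 644 and 673, low for Lcn2, had Car6 at 4.12 and 4.29, above all 11 tumours of the low Car6 component, 8 of which had high Lcn2. Tumour 660 showed the widest contrast, with Lcn2 at 5.54 and Car6 at -1.49. The 4 lowest Mucl2 means, in tumours 647, 649, 644 and 646 (-0.41, -0.56, -0.68 and -1.41), all came from the 5 tumours low for Lcn2. The fifth of these, 673, had Mucl2 at 0.51.

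Because the mixture model gave each gene several components, correlations between genes were computed within components of at least 6 tumours. This gave 10 values, with p adjusted over the 10. Permutation treats tumours as independent. Tumours of the same line may be related and the lines are not labelled, so these p-values may be too small. Within the 7 high-Lpo tumours, Lpo and Mucl2 rose together (r = 0.857, exact permutation p = 0.00357, adjusted p = 0.0179, rho = 0.821 with adjusted p = 0.114). Without the 2 tumours farthest from the median r was 0.693 (n = 5), and the call was lost when any of 640, 641, 643, 667 or 673 was left out, with r between 0.885 without 643 and 0.709 without 667 (exact adjusted p = 0.0833 without 643 and 0.139 without each of the others). Each of these values came from 6 tumours, and among them r fell clearly only without 667. Without 638 r was 0.931. The call therefore rests on few tumours. Within the 14 low-Lpo tumours the same pair had r = 0.338 (permutation, adjusted p = 0.295).

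Mucl2 and Lcn2 had r = 0.679 within the 19 tumours outside the Mucl2 peak (permutation p = 0.00088, adjusted p = 0.0088, rho = 0.575 with adjusted p = 0.0544). These 19 hold both levels of Lcn2, and within the 14 of them with high Lcn2, a selection made after the values were seen, r was 0.065 (adjusted p = 0.841). The value over the 19 thus came with the step between the Lcn2 levels. With slide run means subtracted r was 0.702 (adjusted p = 0.00267), and within the third run it was 0.785 (n = 7, exact adjusted p = 0.0442). The value lost its call without tumour 646 (r = 0.581, adjusted p = 0.0723) and without the 2 farthest tumours (r = 0.633, n = 17, adjusted p = 0.0518).

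Car6 and Lcn2 had a negative correlation at low Car6 that did not pass the adjusted threshold. In the 11 tumours with low Car6, r was -0.626 (permutation p = 0.0305, adjusted p = 0.102, rho = -0.791 with adjusted p = 0.0544), and the 8 of these with high Lcn2, again chosen after seeing the values, gave -0.834 (exact adjusted p = 0.0196). With slide run means subtracted the 11 tumours gave r = 0.138 (adjusted p = 0.754), the means being over all tumours of a run, high Car6 included. No run held both arrays of 6 of the 11, so no within-run value was computed. With only the first arrays r was 0.01, and with only the second arrays -0.547. In the 7 tumours with high Car6, r was 0.772 (exact adjusted p = 0.276) with tumour 656 and -0.393 without it. The remaining 5 values, for Lpo with Car6, Lpo with Lcn2 and Mucl2 with Car6, lay between 0.531 and 0.224 with adjusted p between 0.646 and 0.295. Among them Lpo with Car6 at low Lpo (r = 0.235) was called with only the first arrays (r = 0.863, adjusted p = 0.0004) and was -0.129 with only the second.

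**Figure D2:**
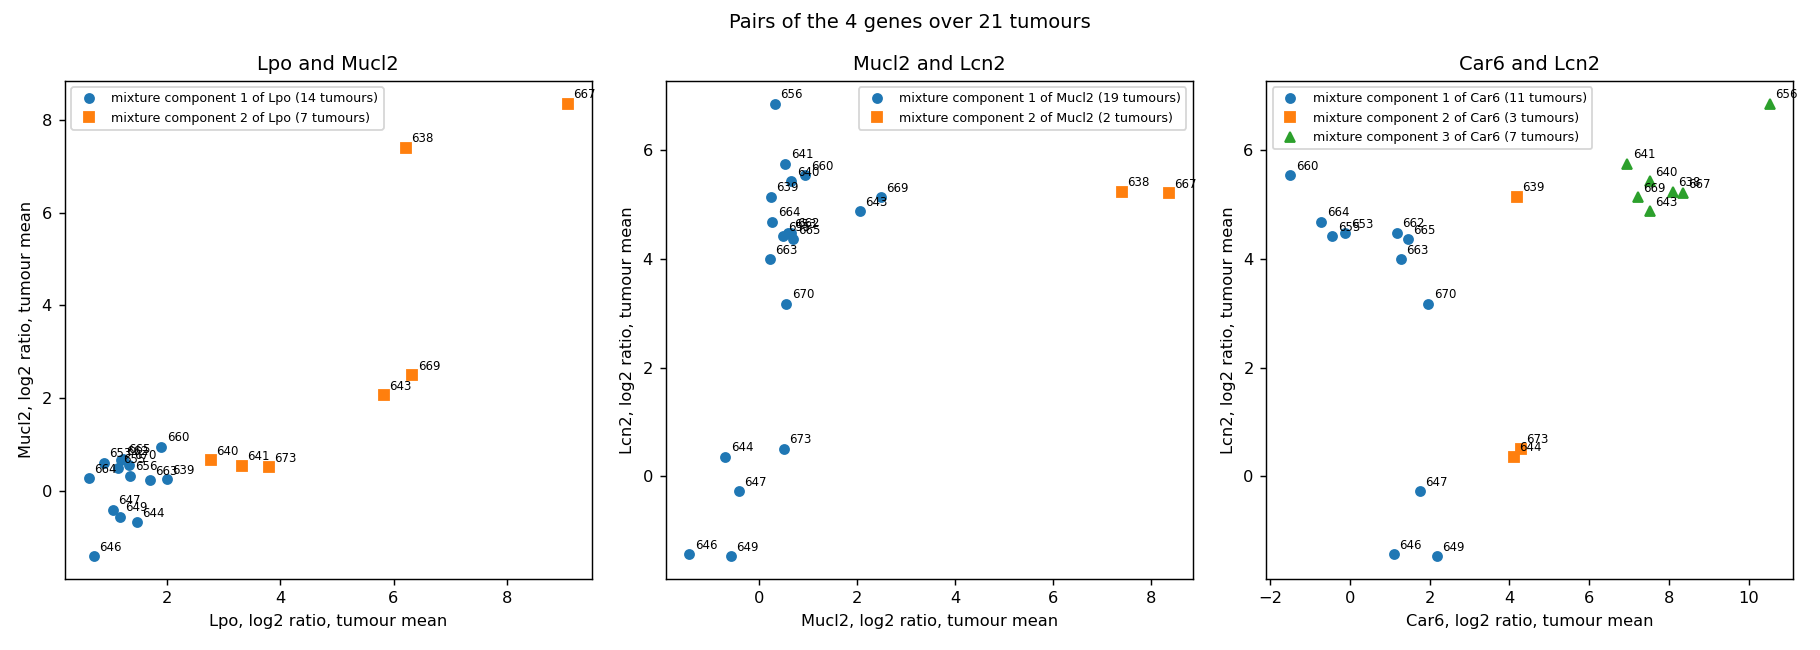
Tumour means (log2 ratio, labelled by tumour number) of Lpo against Mucl2, Mucl2 against Lcn2 and Car6 against Lcn2. Symbols mark the mixture component of the gene on the x axis; in the middle panel the Mucl2 range of the low-Lcn2 tumours 647, 649, 644 and 646 (-0.41 to -1.41) lies left of all others.

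Slide numbers fell into 3 runs, which did not hold high and low tumours evenly. Tumours with both arrays in the second run (653, 655, 656, 662 and 663) had Lpo between 1.70 and 0.89 and Mucl2 between 0.66 and 0.23, so no tumour of that run was high for either gene. In the first run (4 tumours) Lpo ranged between 6.21 and 1.47 and Mucl2 between 7.41 and -0.68, and in the third (8 tumours) Lpo ranged between 9.07 and 1.06 and Mucl2 between 8.36 and -0.56. Car6 in the second run was high in 656 alone (10.51), with a median of 1.18 and the lowest level in 655 (-0.44). Car6 was above 1 in every tumour of the other runs, with medians of 5.85 in run 1 and 5.62 in run 3. Tumours 660, 664 and 665, split between runs 2 and 3, were low too (-1.49, -0.71 and 1.45). Every tumour with an array in the second run, except 656, was thus in the low Car6 component. Tumours 646, 647, 649 and 670 were in that component without such an array. The part of the run in the Car6 levels was not tested. Lcn2 was high throughout the second run (6.86 to 4.00) and reached both levels in the first (5.44 to 0.36) and in the third (5.76 to -1.47). With run means subtracted, Lpo with Mucl2 kept its call at high Lpo (r = 0.903, n = 7, exact adjusted p = 0.00267). It gained a call at low Lpo (r = 0.827, n = 14). Run means were taken over all arrays of a run, and the tumours high for Lpo or Mucl2 lay outside the second run. The subtraction can therefore lower the low tumours of the other runs together in both genes. Its part in the gained call was not tested. Whether a run is a batch of printing or of hybridisation is not given in the sources used here.

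For each gene, the 5 genes most like it over the tumours were found by the smaller of Pearson r and Spearman rho. They are a description in which all points share arrays and reference. The values pool all tumours, and none was computed within the components. Car6 was followed most closely by Dio1, the deiodinase that activates thyroid hormone (r = 0.966, rho = 0.955, 21 tumours). Dio1 averaged 8.86 in tumour 656, 8.60 in 667, 7.96 in 638 and 7.48 in 669, and was lowest at -3.79 in 664. The 3 tumours at the middle level of Car6, 673, 639 and 644, had Dio1 at 3.89, 3.70 and 3.69. Phlda1 (r = 0.897), Pink1, a mitochondrial kinase (r = 0.894), 4931406C07Rik (r = 0.875) and Frmd4b (r = 0.85) completed the set, with rho between 0.895 and 0.855. Dio1 was also among the 5 for Lpo (r = 0.752, rho = 0.80).

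Lcn2 was most like Epcam, an adhesion molecule of epithelial cells (r = 0.974, rho = 0.916), and Spint2, an inhibitor of epithelial surface proteases (r = 0.965, rho = 0.916). Epcam reached 3.53 in tumour 656 and was lowest at -2.63 in 646, and the 5 tumours low for Lcn2 held its 5 lowest levels (-0.08 in 644, -1.23 in 673, -2.34 in 647, -2.39 in 649 and -2.63 in 646). Vim, the intermediate filament of mesenchymal cells, was at 0.24, 0.29, 1.01, 0.97 and 1.23 in tumours 644, 673, 647, 649 and 646. In the other 16 tumours Vim lay between -3.17 and -4.82. Ly96, a partner of the lipopolysaccharide receptor (r = 0.944), Tst, a mitochondrial sulphurtransferase (r = 0.933), and Dtd1 (r = 0.886) were the others. The step between the 5 low tumours and the other 16 enters each r with Lcn2.

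List medians of several cell types moved with the step in Lcn2. The median of the 12 epithelial genes lay between 0.38 (tumour 644) and -1.0 (647) in the 5 tumours low for Lcn2, against 2.55 (641) to 0.65 (670) in the other 16. The 12 mesenchymal genes had medians between 1.26 (646) and 0.31 (649) in the low tumours, against -0.89 (670) to -2.78 (667) in the others. For the 8 macrophage genes the medians were 2.13 (646) to 1.58 (673), against 0.54 (639) to -2.24 (663). None of these 3 ranges overlapped between low and high Lcn2. The 4 skeletal muscle genes did overlap, with 5.99 (673) to 2.54 (647) at low Lcn2 and 2.69 (669) to -1.06 (663) at high Lcn2. Single genes could differ from their list. The epithelial Krt8 was at 2.29 (644), 2.71 (646), 2.63 (647), 2.99 (649) and 2.26 (673) at low Lcn2, above its median of 1.98. In the other 16 tumours Krt8 lay between 2.46 (643) and 0.77 (656), and Krt7 was highest in tumour 644 (3.32). The part of these cell types in the Lcn2 levels was not tested.

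**Figure D3:**
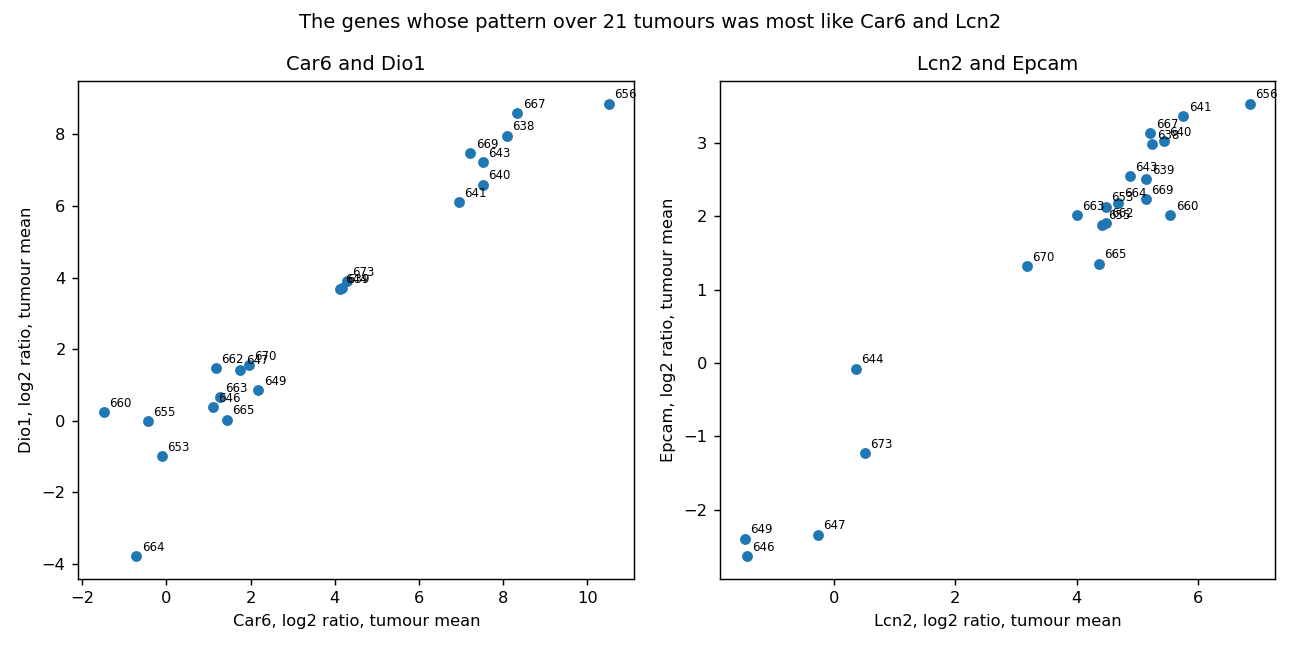
Tumour means (log2 ratio, labelled by tumour number) of Dio1 against Car6 and of Epcam against Lcn2, the closest gene for each. Dio1 and Car6 are both highest in tumour 656 (8.86 and 10.51), and the 5 tumours low for Lcn2 sit apart at the lower left of the second panel.

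Lpo and Mucl2 shared 2 of their 5 nearest genes. Bcat2, which transaminates branched-chain amino acids, had r = 0.826 with Lpo and 0.766 with Mucl2, and Slc6a14, an amino acid transporter of mucosal and mammary epithelium, had r = 0.77 with each (20 tumours). Bcat2 was highest in tumour 638 (2.31) and lowest in 664 (-0.81). Dnase1, a secreted nuclease, had r = 0.862 with Lpo and was at 6.04 in tumour 667 and 3.88 in 638. Ptp4a3 had r = 0.76 with Lpo. For Mucl2 the others were Rnase1, a secreted ribonuclease (r = 0.835, 3.45 in tumour 667), Polb, a DNA repair polymerase (r = 0.804), and Creg1 (r = 0.739). Mucl2 was high in 667 and 638 alone, and these r values were not computed without them.

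Relations to marker lists were taken in the same way, as 24 values over the milk protein, epithelial, mesenchymal and neutrophil lists, of which 1 passed an adjusted p of 0.05 and 4 an unadjusted one. Mucl2 fell as the mesenchymal score rose within its 19 tumours (r = -0.708, permutation p = 0.00034, adjusted p = 0.00816). The rank correlation was weaker (rho = -0.461, adjusted p = 0.265), and r was -0.621 (adjusted p = 0.15) without tumour 646, -0.573 without the 2 farthest tumours and -0.357 (adjusted p = 0.398) on uncentred levels. With the epithelial score Mucl2 had r = 0.613 (adjusted p = 0.0533), which lay next to the threshold. It was called on uncentred levels (r = 0.791, adjusted p = 0.00072), after quantile normalization (0.648, 0.0205), with run means subtracted (0.684, 0.0102), with only the second arrays (0.708, 0.0163) and without tumour 656 (0.612, 0.0458). It was not called by rank (0.607, 0.161), with the repeated top value kept (0.558, 0.146) or with only the first arrays (0.46, 0.54). Lcn2 had r = 0.384 with the epithelial score within its 16 high tumours (adjusted p = 0.43), and 0.769 (adjusted p = 0.00816) once tumour 656 was left out. For Lpo and Car6 no list passed. Car6 with the epithelial score at high Car6 had r = -0.766 (n = 7, exact adjusted p = 0.359), and 0.211 without tumour 656. With slide run means subtracted, Lpo within its 14 low tumours was called with the epithelial score (r = 0.825, adjusted p = 0.00912, against 0.55 and 0.247 without that step). It was also called with the mesenchymal score (r = -0.674, adjusted p = 0.0451, against -0.323 and 0.568). The run means include the tumours high for Lpo, and the part of the subtraction in these calls was not tested.

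None of 6 relations with the milk score was called, with r between 0.168 and -0.48 (permutation, adjusted p between 0.76 and 0.43). Csn2, the beta-casein gene, averaged 7.46 in tumour 663, 7.33 in 641, 7.10 in 660, 5.29 in 638, 5.11 in 664, 5.02 in 662 and 4.93 in 640. Of these 7, tumours 641, 638 and 640 were in the high components of Lpo and Car6, and the other 4 in the low components. Of those 4, tumour 663 had arrays that disagreed for both genes. Tumour 660 had arrays that disagreed for Lpo, and its Car6 came from a single array. The remaining tumours high for Car6 had less Csn2, at 1.28 in 643, 1.25 in 667, 0.87 in 669 and -0.14 in 656. Csn3, the kappa-casein gene, had its 4 highest levels in tumours high for Car6, at 9.05 in 638, 7.51 in 656, 6.5 in 643 and 5.55 in 641.

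Across all genes, limma's moderated F test called 1804 of 9407 probes as different between tumours, which is 19.2%, and 3043 at an unadjusted p below 0.05. The 7 lists of related genes, without the 4, held 54 tested genes, of which 19 were called. With slide run as a block, 710 probes and 12 list genes were called, and with dye orientation as a covariate 4132 probes and 35. By family, the heme peroxidases gave 0 of 2 (Mpo of neutrophils with adjusted p = 0.119, Pxdn of the matrix with 0.228, both from limma). The carbonic anhydrases gave 1 of 4, Car3 (adjusted p = 0.0326), which was highest in tumour 673 (2.47) and lowest in 663 (-0.79). Car2, the abundant cytosolic form, and Car5a were not called (adjusted p = 0.197 and 0.259). Car3 thus peaked in another tumour than Car6, whose value in 673 was 4.29.

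The lipocalin list gave 1 of 6, or 16.7% against 19.2% of all tested probes. It was Lcn8 (limma, adjusted p = 0.0199, 0.98 in tumour 656 and -0.59 in 646). Lrp2, which encodes megalin, an endocytic receptor that takes up Lcn2, was not called (adjusted p = 0.0798, 1.96 in tumour 667 and -2.52 in 663), nor was Slc22a17, described as a receptor of Lcn2 (adjusted p = 0.237). The mucin list gave 3 of 9 (33.3%), all membrane mucins. They were Muc13 (adjusted p = 0.00208, 0.54 in tumour 669 and -2.40 in 663), Muc1 (0.00404, 1.01 in 641 and -0.55 in 644) and Muc4 (0.0392, 1.88 in 673 and -2.98 in 660). Mucl1 was highest in tumour 667 (3.11), as Mucl2 was, but was not called (adjusted p = 0.256).

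The list of other secreted defence proteins gave 10 of 16, or 62.5%, against 19.2% of all tested probes. Its median range between highest and lowest tumour was 5.96, against 2.89 over all tested probes. The lists were chosen with earlier results of these data known, so contrasts of a list with all probes are descriptions and no tests. Its most certain members were Lyz2, a lysozyme (adjusted p = 7.75e-07), Clu, an extracellular chaperone (5.58e-05), and Slpi, a protease inhibitor (3.31e-04). Lyz2 and Lyz1 (adjusted p = 4.19e-04) were highest in tumour 649 at 5.82 and 5.68, and Slpi was highest there too at 1.80, tumour 649 being 1 of the 5 low for Lcn2. Lyz2 had a second probe with a different call, and the lysozyme genes are close copies whose probes may not separate them. Of the 8 macrophage markers, 7 were called. Msr1 and C1qc were highest in tumour 649 (1.63 and 5.56). Cd68, C1qa, Fcer1g, Mrc1 and Tyrobp were highest in 646, also low for Lcn2, and Ctss in 639 (1.76). The part of macrophages in the lysozyme levels was not tested.

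Of the other defence genes, Pglyrp1 was highest in the tumours that led Lpo and Mucl2. Pglyrp1, a peptidoglycan recognition protein (adjusted p = 0.00931), averaged 7.79 in tumour 667, 6.20 in 638, 5.64 in 643 and 5.48 in 669, and it was lowest in 647 (-0.76). Tff2, a trefoil peptide (adjusted p = 0.0055), reached 4.72 in tumour 667 but was at 0.10 in 638, -0.55 in 643 and -1.20 in 669, and its next highest levels were in the 5 tumours low for Lcn2 (2.15 in 673 to 1.76 in 646). Clu, the clusterin gene, reached 4.10 in 643, 4.00 in 638 and 3.82 in 667, with 0.69 in 669. Saa2, an acute-phase apolipoprotein (adjusted p = 3.75e-04), and Lbp, the lipopolysaccharide-binding protein (0.0134), were lowest in tumour 667, at -6.51 and -3.61. Cd14, a lipopolysaccharide co-receptor (0.0087), was lowest there as well at -1.60, and S100a8, a neutrophil calcium-binding protein (0.0318), was highest in tumour 660 (4.80) and lowest in 641 (-2.09). Wfdc12, Chil1, Defb1, Hp, Lgals3 and Tff3 were not called.

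**Figure D4:**
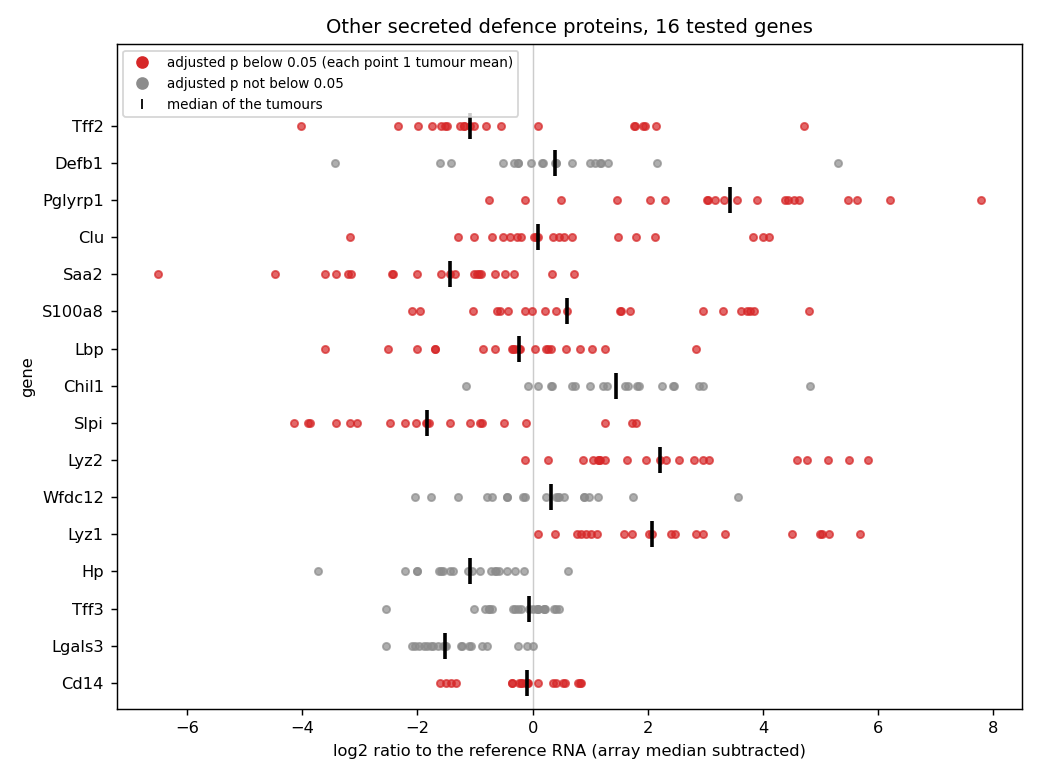
Tumour means (x axis, log2 ratio to the reference RNA, array median subtracted) of the 16 tested genes of the list of other secreted defence proteins (y axis), each point 1 tumour and each black bar the median. Red genes had an adjusted p below 0.05 in limma's F test; Pglyrp1 reaches 7.79 in tumour 667 and Saa2 falls to -6.51 in the same tumour.

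The list of genes that induce Lcn2 gave 1 call, or 11.1%, against 19.2% of all tested probes. Of 9 tested, Socs3, a feedback inhibitor of STAT3 signalling, was called (adjusted p = 0.0207), with 0.45 in tumour 649 and -2.15 in 667. Its 5 highest levels, 0.45 in 649 to -0.14 in 644, were in the 5 tumours low for Lcn2. Stat3 (0.0783) and Il6st, the shared receptor of IL-6 cytokines (0.059), were not. In the prolactin list 3 of 9 (33.3%) were called. They included Xbp1, a factor of secretory cells (6.38e-06, 2.71 in tumour 641 and -0.88 in 673), and Id2 (0.00107, 1.90 in 663 and -1.59 in 673). Socs2, a prolactin-induced inhibitor (0.00851, 4.45 in 656 and -0.98 in 665), was the other. Xbp1 and Id2 were thus lowest in tumour 673, 1 of the 5 with low Lcn2.

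Of the salivary gland markers other than the 4 genes, 3 were tested. Dcpp1, a secreted salivary protein gene, differed between tumours (adjusted p = 0.00932) and averaged 4.75 in tumour 643, 3.87 in 640, 3.75 in 667, 3.67 in 641 and 3.09 in 638. These are 5 of the 7 tumours high for Car6, and the other two, 656 and 669, had 2.14 and 0.75 beside a median of 1.21 over all tumours. The lowest level was 0.07 in 646. Amy1, salivary amylase, stood at -0.39 in tumour 638 and -1.33 in 667 (adjusted p = 0.348), and Aqp5, a water channel of salivary acini, at -0.44 and 0.28 (adjusted p = 0.686). These 2 markers were thus near or below 0 in both Mucl2-high tumours. The part of salivary tissue in the levels was not tested further.

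Among the marker lists, beside 19.2% of all tested probes, calls numbered 3 of 6 for milk proteins, 7 of 12 for epithelial, 8 of 12 for mesenchymal, 2 of 3 for neutrophil, 1 of 4 for skeletal muscle and 0 of 3 for adipocyte genes. Neutrophils are a known source of Lcn2, but the neutrophil list rested on S100a8, Mpo and Lyz2 alone. S100a8 and Lcn2 were both high in tumour 660 (4.80 and 5.54), whereas tumour 641, with the lowest S100a8 (-2.09), had Lcn2 at 5.76. Within the 16 tumours high for Lcn2, r with the neutrophil score was -0.115 (adjusted p = 0.774).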

How the data were processed

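The authors deposited 1 table of 22800 probes by 42 arrays with 24.1% blank cells, whose values were read as log2 ratios between the dyes from their range. Per the labels, RNA was labelled with Cy3 or Cy5 and hybridised as dye swaps. Background correction and normalization are not stated in what was used here. A repeated top value of 16.61 (15512 values, none in the 4 genes) was treated as missing, and 232 Gapdh control spots were averaged.

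The arrays of a tumour were taken as opposed, with orientation from the first eigenvector of the pair differences. It was the same for 42 arrays when the probes of the 4 genes and of all lists were left out. Array medians then ranged from -1.42 to 1.24, and arrays of like orientation correlated at 0.393 in the median and -0.175 at the lowest.

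Probes measured on both arrays of at least 15 tumours were tested uncentred with limma 3.58.1 (R 4.3.3): a tumour factor, a moderated F test, Benjamini-Hochberg adjustment and a threshold of 0.05. These p-values measure the spread between hybridisations of 1 RNA, which is technical. The probe measured on most arrays stood for a gene. Components came from mclust 6.1.1 (up to 3), and two-sided correlation tests used 100000 permutations or, under 10 tumours, exact enumeration (SciPy 1.17.1, Python 3.11.15). These tests treat tumours as independent, and relatedness of tumours within a line could not be taken into account. List scores were means of standardised genes. Correlation p-values were adjusted over the 10 and 24 values computed, since components gave a pair several values. Both tests were tried on simulated data.

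The members and gene lists were chosen with earlier results of these data known. Named are the 4 genes, each called gene of the 7 lists, the 3 of each list with the smallest p, and the 5 genes most like each of the 4. Names came from the platform annotation (16874 probes with 1 symbol, 134 with several, 5792 with none). Slide runs held 9, 13 and 20 arrays, with 4 tumours in 2 runs. Alternatives were centring, quantile normalization, top values kept, slide run, dye, and arrays or tumours left out.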

Additional observations from a re-analysis of the deposited data

How the results depend on the processing

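By replicate number, no paired analysis was possible because the labels number no replicates, and array 1 or 2 of a tumour is only its accession order. The arrays of each tumour were taken as opposed in dye orientation, so they could be matched by it across tumours. The main F test left dye out and called 1804 probes, against 4132 with dye orientation as a covariate. Of all the results compared, none turned its direction while called. The range of Car6 was 8.99 after quantile normalization and that of Mucl2 10.82 uncentred. With 1 array per tumour ranges ran from 6.44 to 10.28 for Lpo, 9.08 to 11.09 for Mucl2 and 11.42 to 14.14 for Car6. Lpo with Mucl2 at low Lpo gained a call with run means subtracted (0.827) and in 1 array set (0.612 to 0.671, and 0.108 to 0.42 without single tumours). At high Lpo it lost its call by rank (0.821), without the 2 farthest tumours (0.693) and with 1 array (0.505 to 0.777). Among single tumours left out (0.709 to 0.931), leaving out 640, 641, 643, 667 or 673 removed that call. Lpo with Car6 at low Lpo gained a call with the first arrays (-0.129 to 0.863 with 1 array). Lpo with Lcn2 at low Lpo gained a call with run means subtracted (0.636). Run means include the tumours high for Lpo, and the part of the subtraction in the calls gained with it was not tested. Mucl2 with Car6 gained one uncentred (0.552), within slide run 3 (0.818) and in 1 array set (0.249 to 0.592, and 0.211 to 0.407 without single tumours). Mucl2 with Lcn2 lost its call by rank (0.575), without the 2 farthest tumours (0.633) and within 1 component of both genes (0.065). With 1 array per tumour, this call was lost with the second arrays (0.546) and kept with the first (0.62). Among single tumours left out (0.581 to 0.726), only leaving out 646 removed it. Car6 with Lcn2 at low Car6 gained a call within 1 component of both (-0.834). Added after seeing the data were the components of both genes and the left-out arrays.

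The 1 call among list relations became 2 after quantile normalization, 5 with run means subtracted, 3 without tumour 656, and 0 by rank or without the 2 farthest tumours, and 0 or 1 with 1 array per tumour. With the second arrays, and uncentred, the 1 call was Mucl2 with the epithelial list (adjusted p = 0.0163 and 0.00072), and Mucl2 with the mesenchymal list was not called (0.211 and 0.398). The count of 1804 probes became 710 and the 19 list genes 12 with slide run as a block, and 4132 and 35 with dye as a covariate. Leaving out each array gave 1448 to 2867 probes and 17 to 30 list genes, the highest for the second array of tumour 660. Asking for both arrays of all 21 tumours gave 1637 of 4038 probes and 15 of 25 list genes. Other settings gave 1280 to 1909 probes and 17 to 21 of 54 list genes. The causes were not tested. What limits the values is 2 hybridisations per tumour, a share of small-ratio values for Lpo and Mucl2, an overall sign that rests on Myc, and tumours whose line is not in the labels.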
